A study of Mus musculus with 10 samples.

Results

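The proteasome genes described here are the 50 protein-coding mouse genes whose symbol begins with Psm, a letter from a to g and a number, out of 45321 genes with a matched transcript. They comprise 8 alpha-ring genes, 4 structural and 3 constitutive catalytic beta-ring genes, and 4 inducible or thymic catalytic beta-ring genes. The remainder are 9 base genes, 8 lid genes, 6 genes of activators and an inhibitor, 7 genes of assembly factors, and Psmc3ip, a recombination factor that matches by its symbol alone. Of these, 49 had enough counts to be tested. Psma8, a germ-cell alpha subunit, had 0 counts in every library, which allows up to 3 counts in each. The members were selected on their symbols and on no measured value, but the family was taken up with the fold changes of these same comparisons known. The counts of members below are therefore a description of the family, and the tests on them are no independent support for its choice.

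The proteasome is the protease that degrades most proteins tagged with ubiquitin. Its barrel-shaped core has outer alpha rings that control entry and inner beta rings that hold the active sites, and it is capped by a regulatory particle made of an ATPase-driven base, which unfolds substrates, and a lid, which removes their ubiquitin. In lymphocytes the inducible subunits encoded by Psmb8, Psmb9 and Psmb10 can take the place of the constitutive ones encoded by Psmb5, Psmb6 and Psmb7, forming the immunoproteasome, which makes peptides suited to MHC class I. Transcription of many subunit genes is raised by the factor NRF1, encoded by Nfe2l1, when proteasome activity is short.

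RNA was sequenced from naive CD4 T cells, helper T cells before their first meeting with antigen. They came from spleens of C57BL/6 mice and were sorted by the surface pattern CD4+CD62L+CD69-. Every library had a 1 h pretreatment with either 12.5 µM Compound 10 or its solvent DMSO (vehicle). The series' design text calls Compound 10 an inhibitor of NFAT:AP-1. NFAT:AP-1 is the pairing on DNA of the calcium-regulated factor NFAT with Fos and Jun proteins. Stimulated cells then received 10 nM PMA, which activates protein kinase C, and 1 µM ionomycin, a calcium ionophore, for 2 h. Together these activate T cells without engaging the receptor. Unstimulated cells are listed with the same 2 h and without PMA or ionomycin. There were 4 groups: Compound 10 with stimulation (n = 3), vehicle with stimulation (n = 2), Compound 10 without stimulation (n = 2) and vehicle without stimulation (n = 3). No label states that a group's libraries were made from different mice or cultures, and the p-values then measure the spread among libraries, part of which may be technical.

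The libraries held 10640171 to 33261541 counts summed over genes. The first principal component took 47.1% of the variance and placed stimulated libraries apart from unstimulated ones, and the second took 17.6%. The 7 T cell identity genes summed to between 1327 and 3183 CPM (counts scaled to library size with TMM factors) in each library. The 7 myeloid markers summed to at most 2.43 CPM, the 3 NK cell markers to at most 0.796 CPM, and of the CD8 T cell markers Cd8a was at most 0.177 CPM. The other CD8 marker, Cd8b1, had 2.54, 7.11 and 5.4 CPM in stimulated cells with Compound 10, against 10.6 and 10.3 CPM in stimulated vehicle cells, and 2.41 to 6.68 CPM in unstimulated cells, and its part in the members' levels was not tested. The 7 B cell markers summed to 250 to 389 CPM in stimulated cells with Compound 10, against 156 to 249 CPM in stimulated vehicle cells. They summed to 108 to 128 CPM in unstimulated cells with Compound 10, against 43.7 to 88.3 CPM in unstimulated vehicle cells. In that sum Cd74 alone held 236, 245 and 366 CPM in stimulated cells with Compound 10 and 149 and 224 CPM in stimulated vehicle cells, and the B cell receptor gene Cd79b was at most 0.932 CPM in any library. In bulk RNA, fewer cells of a type and less RNA per cell cannot be told apart.

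Levels between genes were compared on the TPM scale, which is per transcript length. In unstimulated vehicle cells Psmb6, the caspase-like catalytic subunit, was highest at 652 ± 189 TPM (SD, n = 3). The alpha subunits Psma7 and Psma3 followed at 591 ± 103 and 556 ± 46.3 TPM (SD, n = 3), and the differences among these levels were within their spread. In stimulated cells the activator subunits Psme1 and Psme2 held the highest levels over all their transcripts instead. Psme1 stood at 457 ± 40.8 TPM with Compound 10 (SD, n = 3) and at 600 ± 15.2 TPM under vehicle (SD, n = 2). Psme2 stood at 430 ± 60.1 TPM with Compound 10 and at 544 ± 30.4 TPM under vehicle. These TPM sum all transcripts of a gene, coding or not. In stimulated vehicle cells noncoding transcripts averaged 175 CPM for Psme1 and 104 CPM for Psme2, against 137 and 177 CPM in coding ones. In unstimulated vehicle cells they averaged 167 CPM for Psma3 and 50.9 CPM for Psmb6, against 72.7 and 182 CPM. The order over coding transcripts alone was not taken. At the low end, the thymic subunit Psmb11 stayed under 1 TPM on average in every group, and the core assembly genes Psmg1 and Psmg3 averaged 24.1 and 24.4 TPM in unstimulated vehicle cells. The inducible subunit Psmb8, at 365 ± 31.1 TPM in unstimulated vehicle cells, stood above its constitutive counterpart Psmb5, at 273 ± 16.3 TPM. That order depended on how length was taken: from counts per effective length the log2 ratio of Psmb8 to Psmb5 in those cells was -0.41, -0.10 and 0.02, against 0.18, 0.52 and 0.55 from TPM. Psmb9 and Psmb10, at 69.9 ± 5.59 and 74.9 ± 1.69 TPM, stood below their counterparts Psmb6 and Psmb7, the second of which was at 113 ± 4.40 TPM.

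The main comparison set Compound 10 against vehicle in stimulated cells. With the compound 26 members were lower and 1 was higher at an adjusted p under 0.05. In edgeR's quasi-likelihood F test, adjusted by Benjamini-Hochberg over 14417 genes, 12.8% of all genes were lower and 10.4% higher in this comparison (23.2% in either direction), against 53.1% and 2.04% of the members tested. The median log2 fold change was -0.66 over the members and 0.04 over all genes tested. Over all genes 1502 were higher and 1848 lower, a split that turned to 2090 and 1528 with upper-quartile factors, under which the median of all genes was 0.18. Summed over all members, the level was 3524, 3684 and 4390 CPM with Compound 10 and 6093 and 6523 CPM under vehicle. Lower members were found in the core, the base and the lid, with 6 of 7 alpha genes, 2 of 4 structural beta genes, 2 of 3 constitutive catalytic genes, 7 of 9 base genes and 5 of 8 lid genes. Among the other groups, 3 of 6 activator and inhibitor genes and 1 of 7 assembly genes were lower, and none of the 4 inducible or thymic genes was. Without the vehicle stimulated library 2 the count of lower members was 15, or 30.6% of the members, against 6.62% of all genes.

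In the alpha ring Psma5 fell furthest. This gene (chromosome 3, 108256926 to 108279974, mm10) had 45.4, 51.9 and 57.0 CPM with Compound 10, against 166 and 175 CPM under vehicle. All Compound 10 libraries lay far below both vehicle ones, and the level was 3.31-fold lower (log2 fold change -1.73 ± 0.18 SE, adjusted p = 9.99e-05). Psma6 fell by 1.39 and Psma4 by 1.09 on the log2 scale, while Psma1, Psma2 and Psma7 fell by 0.74 to 0.93. Psma3 was the alpha gene that missed the threshold, with a log2 fold change of -0.58.

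In the base, Psmc2, an ATPase of the ring that unfolds substrates (chromosome 5, 21785283 to 21803787), had 40.6, 51.3 and 51.6 CPM with Compound 10 and 152 and 156 CPM under vehicle. It was 3.22-fold lower (log2 fold change -1.69 ± 0.15 SE, adjusted p = 5.52e-05), with no overlap. The other ATPase genes Psmc1 and Psmc4 fell by 1.33 and 1.32 on the log2 scale, Psmc5 by 0.66 and Psmc6 by 0.51. The scaffold genes Psmd1 and Psmd2, which hold ubiquitin receptors and cofactors at the base, fell by 1.14 and 1.16. Psmc3 and the ubiquitin receptor gene Psmd4 did not pass, at -0.38 and -0.10.

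In the lid, Psmd6 (chromosome 14, 14112174 to 14120984) had 14.6, 25.1 and 27.9 CPM with Compound 10, against 66.7 and 73.6 CPM under vehicle. Its libraries did not overlap, and it was 3.11-fold lower (log2 fold change -1.64 ± 0.24 SE, adjusted p = 7.27e-04). Psmd7, the partner of the lid deubiquitinase, fell by 1.57, Psmd13 by 1.17, Psmd12 by 1.09 and Psmd11 by 0.70 on the log2 scale. The deubiquitinase gene Psmd14 itself, with Psmd3 and Psmd8, did not pass, at log2 fold changes of -0.35, -0.36 and -0.07.

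**Figure D1:**
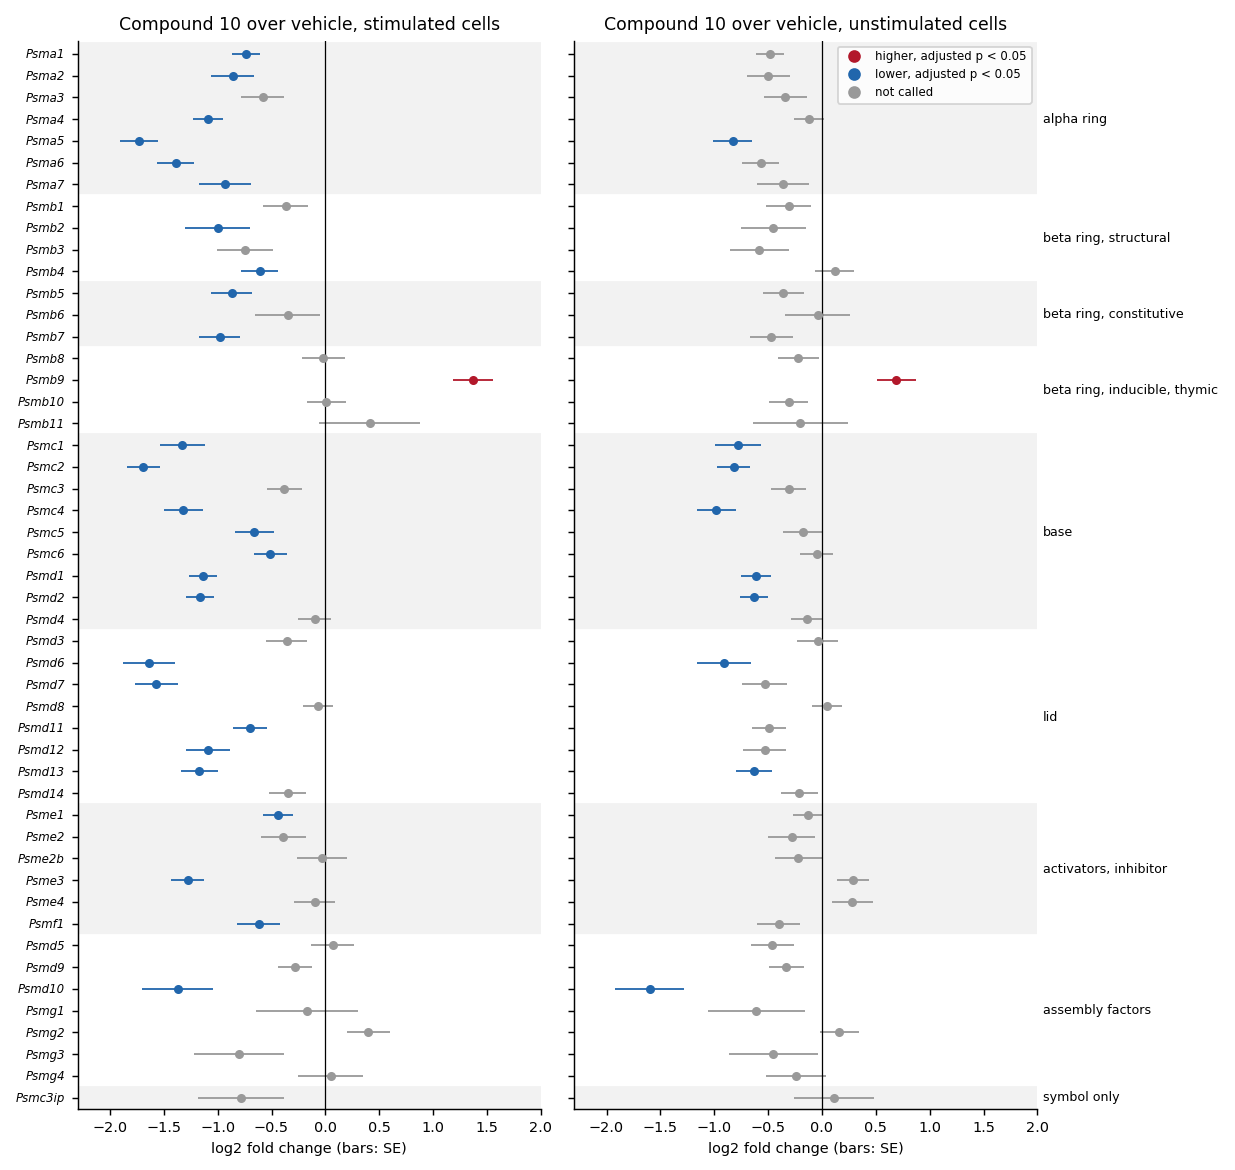
Log2 fold change of each tested member, Compound 10 over vehicle, in stimulated cells (left) and unstimulated cells (right), ordered by role. Points are estimates, bars 1 SE, and colour marks adjusted p under 0.05 in edgeR's quasi-likelihood test. In stimulated cells 26 points are blue and Psmb9 is the red point. In unstimulated cells 9 are blue and Psmb9 is again red.

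Among the constitutive catalytic genes, Psmb5, the chymotrypsin-like subunit, had 34.8, 45.4 and 55.2 CPM with Compound 10 and 80.5 and 85.0 CPM under vehicle in stimulated cells. Psmb7, the trypsin-like subunit, had 40.0, 45.2 and 57.0 CPM with Compound 10 and 92.5 and 94.5 CPM under vehicle. Neither gene's groups overlapped, and the log2 fold changes were -0.87 ± 0.19 (SE, adjusted p = 0.00612) for Psmb5 and -0.98 ± 0.19 (SE, adjusted p = 0.00390) for Psmb7. Psmb6 had 144 to 209 CPM with Compound 10 and 201 to 226 CPM under vehicle, which overlapped, and did not pass (log2 fold change -0.35 ± 0.30 SE, adjusted p = 0.445). Of the structural beta genes, Psmb2 and Psmb4 fell by 1.00 and 0.61 on the log2 scale, and Psmb1 and Psmb3 did not pass, at -0.37 and -0.75.

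The inducible catalytic genes were not among the lowered members. Psmb8 had 81.9, 101 and 108 CPM with Compound 10 and 84.5 and 112 CPM under vehicle (log2 fold change -0.02 ± 0.20 SE). Psmb10 had 23.8, 27.9 and 26.2 CPM with Compound 10 and 22 and 29.6 CPM under vehicle (log2 fold change 0.01 ± 0.18 SE). For both genes the Compound 10 libraries lay within the vehicle range or beside it, and the sign of these near-zero values changed with the scaling. Psmb9 (chromosome 17, 34181987 to 34187764) had 59.8, 63.2 and 72.8 CPM with Compound 10, against 21 and 29.5 CPM under vehicle. All its Compound 10 libraries were above both vehicle ones, and it was 2.58-fold higher over all its transcripts (log2 fold change 1.37 ± 0.19 SE, adjusted p = 4.93e-04). The thymic gene Psmb11 had 1.77 to 3.27 CPM with Compound 10 and 2.06 to 2.08 CPM under vehicle and did not pass. The summed B cell markers given above, mostly Cd74, were also higher with Compound 10, and their part in the level of the inducible genes was not tested.

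**Figure D2:**
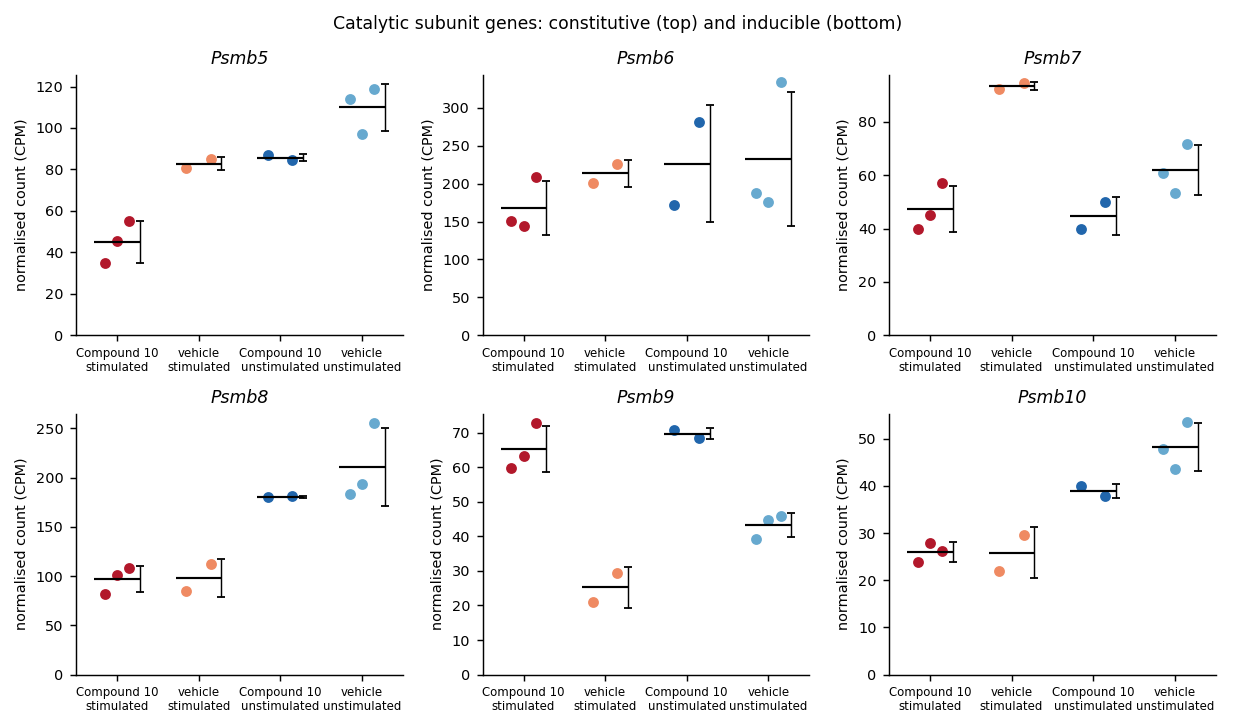
Normalised counts (CPM) of the 3 constitutive catalytic genes (top) and their inducible counterparts (bottom). Each point is a library, the line is the group mean and the bar 1 SD. Psmb5 and Psmb7 are lower with Compound 10 than under vehicle in stimulated cells, Psmb8 and Psmb10 lie at similar heights in those cells, and Psmb9 is higher with Compound 10 in both states.

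The rise of Psmb9 lay in transcripts that are not annotated as protein coding. The annotation gives the gene 6 transcripts, 3 of them coding and 3 with a retained intron, and it was split this way after its values were seen. In stimulated cells the retained-intron transcripts held 41.4, 49.0 and 49.5 CPM with Compound 10, against 10.7 and 11.5 CPM under vehicle. The coding transcripts held 18.5, 14.2 and 23.4 CPM with Compound 10 and 10.3 and 18 CPM under vehicle, and these overlapped. In a fit of coding transcripts only, Psmb9 did not pass in stimulated cells (log2 fold change 0.39, adjusted p = 0.381) or in unstimulated cells (0.19, adjusted p = 0.756). In unstimulated cells the retained-intron transcripts held 49.5 and 44.2 CPM with Compound 10, against 22.6, 24.2 and 22.4 CPM under vehicle. Psmb9 also shares exon bases with Tap1, the peptide transporter gene on the opposite strand, and reads from the shared bases cannot be assigned to either gene, because the kit keeps no strand information. Tap1 had 162, 165 and 159 CPM with Compound 10 and 122 and 127 CPM under vehicle in stimulated cells, which did not overlap but did not pass the test (log2 fold change 0.38, adjusted p = 0.215).

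**Figure D3:**
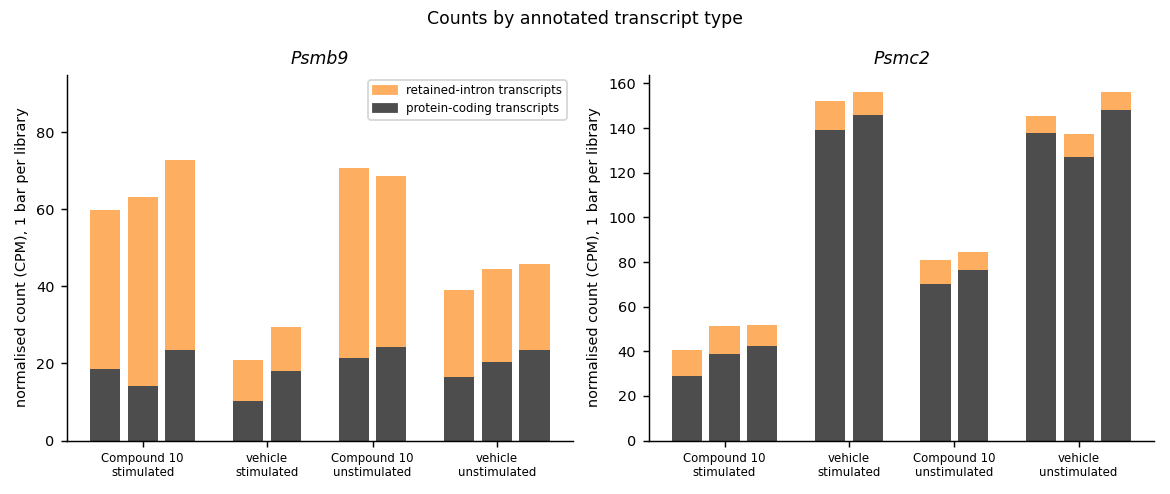
Normalised counts (CPM) of Psmb9 and Psmc2 split by annotated transcript type, with 1 bar per library. For Psmb9 the retained-intron part is 41.4 to 49.5 CPM with Compound 10 and 10.7 to 11.5 CPM under vehicle in stimulated cells, while for Psmc2 the coding part is the one that is lower with Compound 10, at 29 to 42.5 CPM against 139 to 146 CPM.

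In the fit of coding transcripts alone, 23 members were lower with Compound 10 in stimulated cells and none was higher, and all 23 were among the 26 lower over all transcripts. That was 46.9% and 0% of the members, against 11.8% lower and 9.55% higher over all genes in that fit. Psmc2, chosen for this description after its values were seen, had 29, 38.9 and 42.5 CPM in its coding transcript with Compound 10, against 139 and 146 CPM under vehicle, and its log2 fold change there was -1.95. Its retained-intron transcript had 11.5, 12.4 and 9.09 CPM with Compound 10 and 13 and 10.2 CPM under vehicle, which overlapped. Psmb4, Psme1 and Psmf1 did not pass in this fit, with adjusted p of 0.0549, 0.0963 and 0.109 and log2 fold changes of -0.63, -0.41 and -0.57. Of the 49 members with counts, 24 had at least 90% of their counts in coding transcripts in every library, and 11 had under 60% in some library.

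Among the activators, Psme3, which forms the nuclear activator ring (chromosome 11, 101316213 to 101323537), had 121, 140 and 168 CPM with Compound 10, against 345 and 350 CPM under vehicle in stimulated cells. It was 2.43-fold lower with no overlap (log2 fold change -1.28 ± 0.15 SE, adjusted p = 1.92e-04). Psme1, which pairs with Psme2 in the interferon-inducible activator ring, fell by 0.44 on the log2 scale, and Psme2 did not pass at -0.39. Psmf1, an inhibitor of the core, fell by 0.62, while Psme4, another activator gene, and Psme2b, a close relative of Psme2, did not pass at -0.10 and -0.03. Reads of Psme2 and Psme2b may be divided uncertainly between the pair.

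Of the assembly factors, Psmd10, a chaperone of the base (chromosome X, 140948429 to 140956728), was the lone member that fell. It had 2.87, 5.06 and 3.89 CPM with Compound 10, against 8.37 and 12.1 CPM under vehicle, and the groups did not overlap (log2 fold change -1.37 ± 0.33 SE, adjusted p = 0.0116). The other base chaperones Psmd5 and Psmd9 stood at 0.07 and -0.28, and the core assembly genes Psmg1, Psmg2, Psmg3 and Psmg4 at -0.17, 0.40, -0.80 and 0.05, none of which passed.

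Promoter letters were read after many members were seen to be lower with Compound 10. RefSeq promoters of the build GRCm38.p6 matched 42 of the 50 members, and the entries not matched were Psma8, Psmb1, Psmb2, Psmb7, Psmc3, Psmd3, Psmd7 and Psmg2. In the 250 bases before the start, on both strands, 3 motifs were searched, and they were chosen with the expression results known. The antioxidant response letters TGACNNNGC, which NRF1 can bind with small Maf partners, were in 11.9% of the members and in 11.5% of 27025 genes. The CCAAT box was in 35.7% of the members and 37.5% of all genes. The ETS letters CCGGAAG, bound by a family that includes GABPA and ELF1, were in 31.0% of the members and 7.83% of all genes. Among members lowered by Compound 10 in stimulated cells the ETS letters were in 9 of 23, and among members not called there they were in 4 of 18. The following sequences show the antioxidant response letters (capitals) in Psmb5 and Psmb6, constitutive catalytic genes of which Psmb5 fell and Psmb6 did not pass, and the ETS letters (capitals) in Psmc2 and Psmd6, which had the largest falls in the base and the lid. Each runs 5′ to 3′ on the strand of the gene. They are chr14:54617996-54618245 on the minus strand, chr11:70525107-70525356 on the plus strand, chr5:21785025-21785274 on the plus strand (the first of the promoters listed for Psmc2) and chr14:14120946-14121195 on the minus strand.
Psmb5: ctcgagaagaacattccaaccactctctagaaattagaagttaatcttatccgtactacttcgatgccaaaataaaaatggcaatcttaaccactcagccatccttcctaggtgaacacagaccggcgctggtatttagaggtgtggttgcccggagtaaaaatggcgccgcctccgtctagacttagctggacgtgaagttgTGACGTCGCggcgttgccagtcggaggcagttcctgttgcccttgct
Psmb6: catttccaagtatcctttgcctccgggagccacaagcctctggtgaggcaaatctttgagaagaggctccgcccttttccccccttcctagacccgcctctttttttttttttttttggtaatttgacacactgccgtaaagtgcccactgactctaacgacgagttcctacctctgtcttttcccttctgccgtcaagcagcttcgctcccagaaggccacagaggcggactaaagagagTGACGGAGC
Psmc2: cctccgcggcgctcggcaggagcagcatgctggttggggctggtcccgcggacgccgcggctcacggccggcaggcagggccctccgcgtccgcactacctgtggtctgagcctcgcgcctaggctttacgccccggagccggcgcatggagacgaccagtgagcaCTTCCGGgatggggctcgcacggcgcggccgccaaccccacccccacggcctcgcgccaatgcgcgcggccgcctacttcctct
Psmd6: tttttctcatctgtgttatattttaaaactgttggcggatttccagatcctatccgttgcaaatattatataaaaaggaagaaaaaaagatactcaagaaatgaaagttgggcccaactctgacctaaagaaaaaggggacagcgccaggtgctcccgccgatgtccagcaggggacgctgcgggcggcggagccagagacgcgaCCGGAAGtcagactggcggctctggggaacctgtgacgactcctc
In Psmc2 the capitals are the ETS letters of the other strand, CTTCCGG. A match is a description of these letters and does not show that a factor binds there.

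Compound 10 was next set against vehicle in unstimulated cells. Here 9 members were lower and 1 was higher, which was 18.4% and 2.04% of the members tested, against 3.78% of all genes lower and 4.65% higher (8.43% in either direction). The median log2 fold change was -0.34 over the members and 0 over all genes tested. Summed over members, the level was 4273 and 4761 CPM with Compound 10 and 5451, 5186 and 6706 CPM under vehicle. The lowered members were 5 of 9 base genes, 2 of 8 lid genes, 1 alpha gene and 1 assembly gene. This count moved with the libraries and the fit: it was 0 without the Compound 10 unstimulated library 1, 1 without library 2 of that group, 4 without the vehicle unstimulated library 1 and 5 without library 2 of that group. It was also 5 without either vehicle stimulated library and 0 when the fit held the compared groups alone. It was 22, against 7.85% of all genes, when runs of the libraries' index numbers entered as a block. The share of all genes called lower moved as well. Without those unstimulated libraries, in the order given, it was 1.77%, 0.466%, 1.32% and 1.70%, against 0%, 2.04%, 8.16% and 10.2% of the members. Without vehicle stimulated library 1 or 2 it was 2.04% or 2.01%, against 10.2% of the members. With the compared groups alone it was 0.254%.

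Psmd10 showed the largest fall in unstimulated cells, with 7.41 and 11.7 CPM with Compound 10 and 25.5, 23.2 and 38.7 CPM under vehicle. Both Compound 10 libraries were below all vehicle ones (log2 fold change -1.60 ± 0.32 SE, adjusted p = 0.0150). The ATPase gene Psmc4 (chromosome 7, 28041707 to 28050101) had 72.7 and 73.6 CPM with Compound 10 and 133, 124 and 175 CPM under vehicle. It did not overlap either (log2 fold change -0.98 ± 0.18 SE, adjusted p = 0.0103). Psmd6 had 43.5 and 49.0 CPM with Compound 10 and 82.2, 76.9 and 102 CPM under vehicle, again apart (log2 fold change -0.91 ± 0.25 SE, adjusted p = 0.0433). Psma5, Psmc2, Psmc1, Psmd13, Psmd2 and Psmd1 fell by 0.61 to 0.83 on the log2 scale.

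Among the catalytic genes only Psmb9 passed between the unstimulated groups, and none of the 6 passed the interaction test, with adjusted p of 0.144 to 0.733. Psmb5 had 86.8 and 84.7 CPM with Compound 10 and 114, 97.3 and 119 CPM under vehicle, and Psmb7 had 39.7 and 49.8 CPM with Compound 10 and 61.0, 53.2 and 71.6 CPM under vehicle. Neither gene overlapped between groups, yet neither passed, with log2 fold changes of -0.36 and -0.47. Psmb6 had 172 and 281 CPM with Compound 10, and 188, 176 and 334 CPM under vehicle, a wide spread in both groups. Psmb8 had 180 and 181 CPM with Compound 10 and 183, 194 and 256 CPM under vehicle, and Psmb10 had 40.0 and 37.8 CPM with Compound 10 and 47.7, 43.5 and 53.6 CPM under vehicle. Both inducible genes lay a little below vehicle and did not pass, at -0.22 and -0.31. Psmb9 had 70.8 and 68.6 CPM with Compound 10, against 39.2, 44.7 and 45.8 CPM under vehicle (log2 fold change 0.69 ± 0.18 SE, adjusted p = 0.0358).

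The stimulated and unstimulated comparisons of Compound 10 share no library, but both come from 1 fit of all libraries. Their calls rest on the same estimate of spread for each gene and are not independent. All 9 members lowered in unstimulated cells were also lowered in stimulated cells, which is 100% of the first list and 34.6% of the second. Over all genes tested, 241 were lower in both states, 44.2% of the 545 lower in unstimulated cells and 13% of the 1848 lower in stimulated cells. Of the 49 members, 38 had a log2 fold change below 0 in both states, and across these members the values of the 2 comparisons had a Pearson correlation of 0.67, against 0.27 across all genes tested. Genes are not independent replicates, so this is a description. The fold change was more negative in stimulated than in unstimulated cells for 37 of 49 members. For these 2 counts of signs no share over all genes was taken, and the interaction test called 3 members.

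The interaction asked whether the effect of Compound 10 differed with stimulation. It was called lower for 3 members and higher for none, or 6.12% of the members, against 4.08% of all genes lower and 2.55% higher (6.63% in either direction), so the share lay near the background in this fit. At an unadjusted p under 0.05 there were 11 members, and no share over all genes was taken at that threshold. Psme3 had the largest difference, since its 121, 140 and 168 CPM with Compound 10 against 345 and 350 CPM under vehicle in stimulated cells stood beside 124 and 122 CPM with Compound 10 against 104, 95.3 and 101 CPM under vehicle in unstimulated cells. The difference of log2 fold changes was -1.58 ± 0.21 (SE, adjusted p = 0.00270). Psma4 had 49.6, 44.2 and 53.2 CPM with Compound 10 against 97.6 and 111 CPM under vehicle in stimulated cells, and 77.6 and 78.9 CPM against 86.5, 80.4 and 88.2 CPM in unstimulated cells (-0.97 ± 0.20 SE, adjusted p = 0.0189). Psmc2 was lower with Compound 10 in both states, at 80.7 and 84.6 CPM against 146, 137 and 156 CPM under vehicle in unstimulated cells, and the effect was larger after stimulation (-0.86 ± 0.21 SE, adjusted p = 0.0348). This call for Psmc2 was lost under 11 of the alternatives described below. With the block by runs of index numbers 12 members were lower, 24.5% of the members against 8.95% of all genes, so that share stood above the background. With DESeq2 it was 7, or 14.3% against 6.80% of all genes. The count of members called lower was also 7 without the vehicle unstimulated library 3, or 14.3% against 5.58% of all genes. It was 1 without the Compound 10 unstimulated library 2 and 1 without either vehicle stimulated library. That is 2.04% of the members, against 2.06% of all genes for the first of these. Without vehicle stimulated library 1 or 2 it stood against 0.951% or 1.13% of all genes.

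Stimulation under vehicle changed the family unevenly. Compared with unstimulated vehicle cells, 7 members were higher and 9 lower after PMA and ionomycin, or 14.3% and 18.4% of the members, against 19.5% and 19.4% of all genes, so neither share stands above the background. The median log2 fold change was -0.02 over members and -0.06 over all genes. Of the 9 base genes 0 were called in edgeR without a block, 0 had an unadjusted p under 0.05 there, and DESeq2 called 0 with 1 at an unadjusted p under 0.05. With the block by runs of index numbers Psmc6 was called higher (log2 fold change 0.40), and without scaling all 9 were lower. The activators Psme3, Psme1 and Psme2 rose, all 3 immunoproteasome genes fell, and 3 of 7 assembly genes fell. Without scaling between libraries, which moved the median of all genes to -0.83, 38 members were lower and 2 higher, and the rises of Psma5, Psmb7 and Psmd8 turned negative. Of all genes 45.8% were lower in that fit, against 77.6% of the members. Without the vehicle stimulated library 1 the count of lower members was 2, or 4.08% of the members, against 10.1% of all genes.

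Psme3 had 345 and 350 CPM in stimulated vehicle cells, against 104, 95.3 and 101 CPM in unstimulated ones, and was 3.48-fold higher (log2 fold change 1.80 ± 0.15 SE, adjusted p = 4.58e-06). Psme1 had 314 and 308 CPM in stimulated cells and 141, 129 and 117 CPM in unstimulated cells (log2 fold change 1.27 ± 0.14 SE, adjusted p = 2.79e-05). The structural beta gene Psmb4 had 143 and 155 CPM in stimulated cells and 58.9, 65.5 and 78.4 CPM in unstimulated cells (log2 fold change 1.14 ± 0.17 SE, adjusted p = 3.53e-04). In these 3 genes every stimulated library was above every unstimulated one. Psme2, Psmd8, Psmb7 and Psma5 rose by 1.02, 0.71, 0.59 and 0.50 on the log2 scale.

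Psmd10 had 8.37 and 12.1 CPM in stimulated vehicle cells, against 25.5, 23.2 and 38.7 CPM in unstimulated ones (log2 fold change -1.50 ± 0.33 SE, adjusted p = 0.00380). Psmd5, another chaperone of the base, had 48.8 and 55.7 CPM in stimulated cells, and 107, 106 and 152 CPM in unstimulated cells (log2 fold change -1.22 ± 0.21 SE, adjusted p = 7.10e-04). Psmb8 had 84.5 and 112 CPM in stimulated cells, and 183, 194 and 256 CPM in unstimulated cells (log2 fold change -1.10 ± 0.20 SE, adjusted p = 0.00119). The stimulated libraries of these genes were all below the unstimulated ones. Psmb10 and Psmb9 fell by 0.90 and 0.77, Psmg2 by 0.77, Psmb3 by 0.75, Psmf1 by 0.60 and Psma1 by 0.38 on the log2 scale. In coding transcripts alone the fall of Psmb9 did not pass (log2 fold change -0.48, adjusted p = 0.217).

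Stimulation with Compound 10 gave a different count. Compared with unstimulated Compound 10 cells, 3 members were higher and 16 lower, or 6.12% and 32.7% of the members, against 12.8% and 13.7% of all genes. The median log2 fold change was -0.40 over members and -0.01 over all genes. The lowered members were 3 of 9 base genes, 3 of 8 lid genes, 3 of 7 alpha genes, Psmb3, Psmb5, Psmb8, Psmb10, Psmf1, Psmd5 and Psmd10. The count of lower members was 7 without the Compound 10 unstimulated library 2, 9 without the Compound 10 stimulated library 1 and 10 without library 2 of that group, and 39 without scaling. In that order these were 14.3%, 18.4%, 20.4% and 79.6% of the members, against 8.15%, 10.0%, 10.1% and 36.2% of all genes. Whether the 2 stimulation effects differed is the interaction given above.

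Psme1 had 222, 234 and 233 CPM in stimulated and 126 and 110 CPM in unstimulated Compound 10 cells, and did not overlap (log2 fold change 0.96 ± 0.14 SE, adjusted p = 5.91e-04). Psme2 had 195, 196 and 250 CPM in stimulated cells and 96.4 and 131 CPM in unstimulated cells (log2 fold change 0.91 ± 0.22 SE, adjusted p = 0.0105). Psmd8 had 192, 178 and 218 CPM in stimulated cells and 126 and 133 CPM in unstimulated cells (log2 fold change 0.59 ± 0.14 SE, adjusted p = 0.0101). The count of higher members was 1 without the Compound 10 unstimulated library 1 and 0 without scaling. Of all genes 10.1% and 5.62% were higher there, against 2.04% and 0% of the members. Psmd10 had 2.87, 5.06 and 3.89 CPM in stimulated cells and 7.41 and 11.7 CPM in unstimulated cells (log2 fold change -1.28 ± 0.33 SE, adjusted p = 0.0134). Psmd7 had 34.6, 47.7 and 53.2 CPM in stimulated cells and 84.9 and 103 CPM in unstimulated cells (log2 fold change -1.05 ± 0.20 SE, adjusted p = 0.00288). Psmd6 had 14.6, 25.1 and 27.9 CPM in stimulated cells and 43.5 and 49.0 CPM in unstimulated cells (log2 fold change -1.03 ± 0.24 SE, adjusted p = 0.00843). For all 3 lowered genes no stimulated library reached an unstimulated one.

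**Figure D4:**
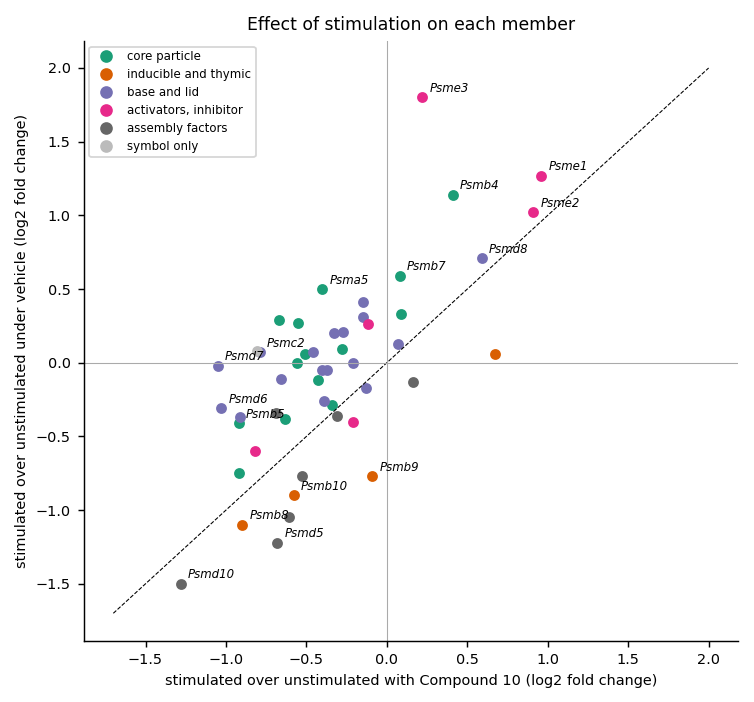
Log2 fold change of stimulation for each tested member, with Compound 10 (horizontal axis) and under vehicle (vertical axis). The dashed line marks equal values, colour marks the role, and the labelled genes were picked after their values were seen. Psme3 lies far above the line, at 0.22 with Compound 10 and 1.80 under vehicle, and most core, base and lid genes lie above it as well.

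The balance of inducible and constitutive catalytic subunits was described as the log2 ratio of their TPM within each library, which does not depend on scaling between libraries and was not tested. In stimulated cells the ratio of Psmb8 to Psmb5 was 0.76, 0.69 and 0.49 with Compound 10 and -0.45 and -0.02 under vehicle, a difference of 0.88. The ratio of Psmb10 to Psmb7 was -1.05, -1.03 and -1.40 with Compound 10 and -2.28 and -1.97 under vehicle, a difference of 0.97. Neither pair overlapped, and in both the inducible gene differed little while the constitutive one fell. The ratio of Psmb9 to Psmb6 was -2.22, -2.21 and -2.27 with Compound 10 and -3.68 and -3.29 under vehicle, a difference of 1.25 over all transcripts and of 0.26 over coding transcripts, where the libraries overlapped. In unstimulated cells the ratio of Psmb8 to Psmb5 was 0.56 and 0.49 with Compound 10 and 0.18, 0.52 and 0.55 under vehicle, and that of Psmb10 to Psmb7 was -0.24 and -0.65 with Compound 10 and -0.62, -0.57 and -0.57 under vehicle. Both pairs overlapped there. After stimulation under vehicle the ratio of Psmb10 to Psmb7 was 1.54 lower and that of Psmb8 to Psmb5 was 0.65 lower than in unstimulated vehicle cells, with no overlap in either.

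**Figure D5:**
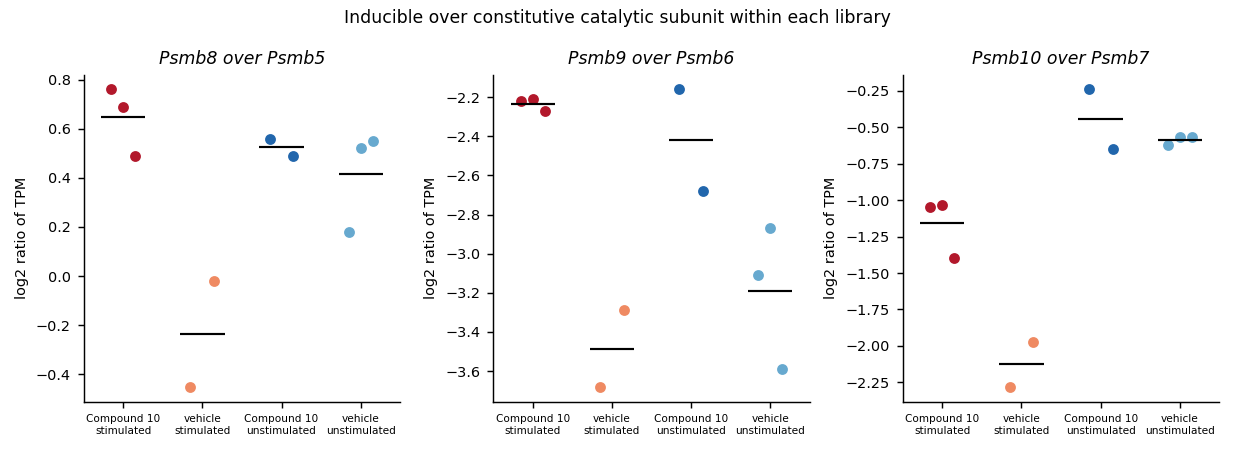
Log2 ratio of TPM of each inducible catalytic gene over its constitutive counterpart within each library (points) with the group mean (line). In stimulated cells the Compound 10 libraries lie above the vehicle ones in all 3 pairs, by 0.88, 1.25 and 0.97 on average. For Psmb9 over Psmb6 the difference is 0.26 when coding transcripts alone are summed.

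Genes that work with the proteasome but fall outside the symbol pattern were read from 4 lists, of associated factors, of the NRF1 axis, of ubiquitin with its shuttles, and of peptide supply to MHC class I with interferon regulators. With Compound 10 in stimulated cells, 1 of 11 associated factors was higher and 1 lower, 2 of 12 NRF1 axis genes were higher and 3 lower, 4 of 14 ubiquitin and shuttle genes were lower, and 1 of 10 class I genes was lower. Over all genes 10.4% were higher and 12.8% lower (23.2% in either direction). The lists' median log2 fold changes were -0.19, -0.08, -0.30 and 0.06, against the members' median of -0.66. A median does not show how far single genes moved where they went in opposite directions, as in the NRF1 axis. DESeq2 called 4 of 11, 7 of 12, 5 of 14 and 1 of 10 genes of the lists in either direction. With DESeq2 11.6% of all genes were higher and 14.8% lower. Because the counts of listed genes called are small, the genes in the following sentences were named after their values were seen. In the NRF1 axis, Nfe2l1 had 60.2, 61.9 and 41.7 CPM with Compound 10 and 154 and 138 CPM under vehicle in stimulated cells, which did not overlap. Its log2 fold change was -1.42 ± 0.38 (SE, adjusted p = 0.0194), and without either vehicle stimulated library, or without the Compound 10 stimulated library 3, it did not pass, with adjusted p of 0.114, 0.0762 and 0.0679. Ngly1, the deglycosylating enzyme that processes NRF1, had 71.9, 66.8 and 61.6 CPM with Compound 10 and 16.9 and 19.7 CPM under vehicle, a log2 fold change of 1.86 ± 0.17 (SE, adjusted p = 6.84e-05). Maff rose by 0.69 on the log2 scale, while Mafk and Syvn1 fell by 0.59 and 0.73. The calls of Maff, Mafk and Syvn1 were lost under 8, 9 and 5 of the alternatives described below. In coding transcripts alone Maff and Mafk did not pass.

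Among the shuttle genes, Nsfl1c, a cofactor of the unfoldase Vcp, had 42.1, 49.5 and 47.8 CPM with Compound 10 and 129 and 123 CPM under vehicle, a log2 fold change of -1.44 ± 0.18 (SE, adjusted p = 3.06e-04). Nploc4, another Vcp cofactor, had 15.6, 12.3 and 13.6 CPM with Compound 10 and 34.4 and 26.5 CPM under vehicle, a log2 fold change of -1.13 ± 0.19 (SE, adjusted p = 0.00167). Neither gene overlapped between the groups, and Rad23b and Ubqln4, which carry ubiquitinated proteins to the proteasome, fell by 0.92 and 0.73. The proteasome-bound deubiquitinase gene Usp14 rose by 0.67 and Akirin2, which helps import proteasomes into the nucleus, fell by 0.88. Of the class I list, Tapbp, the loading factor tapasin, fell by 0.72. In unstimulated cells Zfand5 rose by 0.63 and Tapbp fell by 0.59, while the other 2 lists had 0 genes called in edgeR. At an unadjusted p under 0.05 there were 5 of 12 NRF1 axis genes and 3 of 14 ubiquitin and shuttle genes. No share over all genes was taken at that threshold. DESeq2 called 3 of the first list (Bach1, Ngly1 and Vcp) and 0 of the second. Of all genes DESeq2 called 6.30% higher and 6.80% lower in that comparison.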

How the data were processed

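Per the labels' protocols, a Clontech SMART-seq kit was used for the 10 libraries, and it keeps no strand information. Tools named in the submitters' processing notes are cutadapt and kallisto, with mm10 as the build, and no version is given in the sources used here. The authors deposited estimated counts and TPM per transcript, per the file headers. Transcripts were matched by Ensembl identifier to GENCODE M21 (108214 of 109617), and the unmatched ones held 0.507% to 0.671% of a library's counts. The estimated counts were added up for each gene, then rounded.

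All libraries entered 1 fit with 1 coefficient per group in edgeR 4.0.16 (limma 3.58.1, R 4.3.3), with TMM scaling and the filterByExpr filter, which left 14417 of 45321 genes. Contrasts were tested by the quasi-likelihood F test with Benjamini-Hochberg adjustment over those genes, and genes with adjusted p under 0.05 are called. Each SE was derived from a fold change and its F statistic. The test was tested on simulated counts, in which the interaction recovered fewer of the changes made than the other contrasts did. The interaction fell short of the recovery first required, and that requirement was then replaced by one on bias and false calls. Few calls in the interaction therefore do not show equal effects. The smallest chi-square per degree of freedom between libraries of a group was 13.7, and no library was treated as a repeat of another. The alternatives were other scalings, no filter, DESeq2 1.42.0, fits of the compared groups, coding transcripts alone, a replicate block, a block by runs of index numbers in the file names, and leaving out each library.

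The members and the gene lists were chosen with earlier results of these data known. Per-library values are given for the 6 catalytic genes and for up to 3 called members with the largest rise and fall in each comparison, and up to 2 called genes of the other lists in each direction. Counts of members called are read beside the share of all genes called. Exon bases of 15 members overlap those of another gene. Values of some single genes of the lists are not reported here.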

Additional observations from a re-analysis of the deposited data

Results flagged for a closer look

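The interaction test called an effect of Compound 10 that differed with stimulation for 3 members and for 2 genes of the other lists. The difference of log2 fold changes was -1.58 for Psme3, -0.97 for Psma4 and -0.86 for Psmc2. It was 1.39 for Ngly1, whose CPM with Compound 10 in unstimulated cells were 82.1 and 68.8 against 52.8, 55.1 and 55.4 under vehicle. It was -1.21 for Bach1, a repressor at the antioxidant response letters, which had 46.9, 48.1 and 38.6 CPM with Compound 10 against 67 and 64.8 CPM under vehicle in stimulated cells, and 13.2 and 19.8 CPM against 10.1, 10.5 and 11.1 CPM in unstimulated cells. Of these, Psme3 was called under every alternative run. The call was lost under 11 alternatives for Psmc2, 7 for Bach1, 3 for Psma4 and 1 for Ngly1.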

How the results depend on the processing

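Among members called, 15 of 27 for Compound 10 in stimulated cells and 0 of 10 in unstimulated cells were called under every alternative run, with 4 of 16 for stimulation under vehicle, 7 of 19 for stimulation with Compound 10 and 1 of 3 for the interaction. With 2 libraries in some groups, the precision of each fold change rests on few samples. Same-numbered libraries deviated from their group means with correlations of -0.279 to 0.331, against -0.464 to 0.464 for different numbers, and so were not taken as pairs. Libraries of 1 run of index numbers did so with -0.0516 to 0.464, against -0.464 to 0.331 for different runs. Run 3 held no vehicle stimulated library and run 1 held no Compound 10 unstimulated library. The fit behind the main results had no term for runs. The causes of the differences below were not tested.

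For stimulation under vehicle, 38 members were lower and 2 higher without scaling, 11 were higher with the run block, and the replicate block gave 8 lower and 10 higher and called Psmc6 higher, at 0.40. Over all genes, 45.8% were lower and 8.34% higher without scaling, against 77.6% and 4.08% of the members. With the run block 22.4% of all genes and 22.4% of the members were higher. The replicate block gave 20.5% lower and 20.8% higher over all genes, against 16.3% and 20.4% of the members. Without 1 library, 2 to 8 were lower and 5 to 9 higher. Without scaling the log2 fold changes turned to -0.27 for Psma5, -0.18 for Psmb7, -0.06 for Psmd8, -0.17 for Nfe2l2 and -0.16 for Syvn1. Psmb6 was at 0.16 with the replicate block, at 0.17 with the run block and between -0.29 and 0.23 without 1 library. For stimulation with Compound 10, 39 were lower and 0 higher without scaling, and the replicate block gave 24 lower and 3 higher. Without 1 library, 7 to 17 were lower and 1 to 3 higher. Psmb7 was at -0.50 without scaling, at -0.05 with the replicate block and between -0.08 and 0.23 without 1 library, and H2-D1 was at -0.02 without scaling.

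For Compound 10 in stimulated cells, coding transcripts alone gave 0 higher, the replicate block and the run block each gave 32 lower and 1 higher, and without 1 library 15 to 28 were lower. Over all genes 14.8% were lower with the replicate block and 16.9% with the run block, against 65.3% of the members in each. Without 1 library 6.62% to 14.7% of all genes were lower, against 30.6% to 57.1% of the members. Psmb10 was at -0.02 with RLE factors, DESeq2 and the run block, at -0.03 with the replicate block and between -0.19 and 0.25 without 1 library. Psmb8 was at 0.11 with upper-quartile factors, 0.09 without scaling, 0.01 with no filter and 0.00 with the compared groups alone, and between -0.21 and 0.21 without 1 library. For Compound 10 in unstimulated cells, the compared groups alone gave 0 lower and 0 higher, coding transcripts alone 5 lower and 0 higher, no scaling 0 higher, the run block 22 lower and the replicate block 10 lower. Over all genes 2.60% were lower in coding transcripts, 7.85% with the run block and 5.21% with the replicate block. The shares were 10.2%, 44.9% and 20.4% of the members. Without 1 library, 0 to 9 were lower and 0 to 1 higher, while over all genes 0.466% to 4.24% were lower and 1.67% to 5.13% higher. Psmb6 was at 0.00 with upper-quartile factors, at 0.23 with the replicate block and between -0.43 and 0.32 without 1 library. For the interaction, 7 were lower with DESeq2, 12 with the replicate block (24.5% of members, against 6.30% of all genes), 12 with the run block, which gave 1 higher, and 1 to 7 without 1 library. Without 1 library 0.951% to 5.58% of all genes were lower, against 2.04% to 14.3% of the members. The interaction of Psmb8 was at -0.05 with the replicate block and that of Psmb6 between -0.67 and 0.07 without 1 library.

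The log2 ratio of Psmb9 to Psmb6 over coding transcripts differed by 0.13 for stimulation under vehicle, and by 0.26 and 0.25 for Compound 10 in stimulated and in unstimulated cells. From counts per effective length it differed by -0.73 and 1.75 for the first 2 of these. Without 1 library the difference with Compound 10 in stimulated cells was 0.66 to 1.10 for Psmb8 to Psmb5 and 1.06 to 1.44 for Psmb9 to Psmb6, and that of stimulation with Compound 10 was -0.07 to 0.45 for Psmb9 to Psmb6. For Psmb10 to Psmb7 it was -1.69 to -1.38 for stimulation under vehicle and -0.06 to 0.35 for Compound 10 in unstimulated cells.

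Without scaling the median log2 fold change of all genes was -0.83 and -0.60 for stimulation under vehicle and with Compound 10, 0.15 for Compound 10 in stimulated cells and 0.18 for the interaction. Genes higher and lower then numbered 1202 and 6610, 810 and 5219, 1831 and 1525, and 527 and 314, against 2814 and 2803, 1844 and 1972, 1502 and 1848, and 368 and 588 with TMM. For Compound 10 in unstimulated cells they numbered 470 and 637 without scaling, against 670 and 545. For the interaction they numbered 494 and 476 with upper-quartile factors. With the compared groups alone, all genes called for Compound 10 in unstimulated cells were 86 higher and 36 lower, against 908 and 980 with DESeq2 and 1271 and 1132 with the run block. For the interaction they were 690 and 981 with DESeq2, 648 and 800 with no filter, 596 and 908 with the replicate block and 877 and 1290 with the run block. Without the vehicle stimulated library 1 they were 45 and 146 for the interaction, and without the Compound 10 unstimulated library 2 they were 254 and 71 for Compound 10 in unstimulated cells.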
